A study of Homo sapiens with 6 samples.

Results

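The genes described here are those that build and define an epithelial cell: 45 named genes of tight junctions, adherens junctions and desmosomes, keratins, and the transcription and splicing factors that set epithelial identity. A gene was measured where a probe set carried it as its only annotated symbol, and where several did, the brightest on average across the 6 arrays stood for it. That gave 40 measured members among 19775 measured genes, namely 16 tight junction genes, 12 adherens junction and desmosome genes, 7 keratins and 5 factors. F11R, KRT6A and KRT17 had no probe set in the annotation used, ESRP2 and CTNND1 only probe sets with several symbols, and these 5 were not analysed here. The cells were SW-1990, an established line of human pancreatic adenocarcinoma. In sh-PRLR cells (3 arrays) a lentivirus carried an shRNA against PRLR, the prolactin receptor, and in sh-Ctrl cells (3 arrays) it carried a scrambled shRNA. Both groups had been selected in puromycin at 1 µg/ml for more than 7 days, and the labels do not say how many shRNA sequences or clones were used. The labels call the 3 arrays of a group biological replicates, and each holds total RNA on an Affymetrix U133 Plus 2.0 array.

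Epithelial cells are held side by side by stacked junctions. Tight junctions, made of claudins and occludin on a scaffold of ZO proteins, seal the space between cells, adherens junctions couple E-cadherin to actin through catenins, and desmosomes couple their own cadherins to keratin filaments. Simple epithelia such as pancreatic duct carry the keratin pair KRT8 and KRT18 with KRT19, while KRT20 is a keratin of gut epithelium that is also made by part of pancreatic carcinomas. Grainyhead-like factors, ELF3, OVOL1 and the ESRP splicing regulators keep this programme in place.

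All values are log2 expression values as deposited, scaled by the authors to the same mean signal on each array, and every difference is sh-PRLR minus sh-Ctrl on that log2 scale. Pearson correlations over the brighter genes ran from 0.988 to 0.991 between arrays of the same group and from 0.981 to 0.984 between groups. PRLR itself, averaged over its 7 probe sets, stood at 4.17 ± 0.22 in sh-PRLR cells and 5.02 ± 0.22 in sh-Ctrl cells (SD, n = 3 each). The difference was -0.85, all 7 probe sets were lower in sh-PRLR cells, and an exact permutation of the group labels gave a two-sided p of 0.1, which no split of 6 arrays into groups of 3 can undercut. Both PRLR means lay under 5.93, the limit below which genes are called dim here. That limit was set on the brightest probe set of each gene, whereas the PRLR means average 7 probe sets, so they are not directly comparable. No detection calls were used, so whether PRLR was above background in either group is not known. Of the 9 duct-type carcinoma markers, MUC1 and CEACAM6 were low in both groups, at means of 5.03 and 6.38 in sh-PRLR cells, against 6.33 and 6.45 in sh-Ctrl cells, whereas the median gene lay at 7.23. The summed linear signal of all 9 ran from 107136 to 112882 in sh-PRLR cells and from 107110 to 115403 in sh-Ctrl cells. Markers of acinar, endocrine, fibroblast, immune and endothelial cells summed to at most 424 on any sh-PRLR array and 440 on any sh-Ctrl array for each list, and none of their measured genes passed the test. The endocrine list summed to 35.9 to 67.8 in sh-PRLR cells and 19.8 to 28.6 in sh-Ctrl cells, and the acinar list to 97.4 to 105 in sh-PRLR cells and 108 to 143 in sh-Ctrl cells, both without overlap. All 4 measured endocrine genes and 3 of the 4 measured acinar genes were dim, with means under 5.93. Such values cannot be told from background. The fibroblast list's sums overlapped, but its mean log2 level ran from 4.20 to 4.76 in sh-PRLR cells and from 5.11 to 5.21 in sh-Ctrl cells, without overlap, with a median difference of -0.86 over 7 genes, 5 of them dim. Of these, PDGFRA, at 2.64 in sh-PRLR cells and 4.67 in sh-Ctrl cells, was the only gene without overlap. The part of these lists in the results was not tested. In such bulk RNA, fewer cells of a type and less RNA per cell cannot be told apart.

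Of the 40 measured members 5 passed, or 12.5% (limma with a mean-dependent, robust prior variance, adjusted p below 0.05 over all genes). ELF3, KRT20 and CDH1 fell in sh-PRLR cells, OCLN and CLDN12 rose, and 35 members did not pass. Over all genes 7.66% passed, 3.34% higher and 4.32% lower. Among genes with a mean of 5.93 or more, those left once the dimmest 40% are set aside, 12.5% passed (5.44% higher and 7.01% lower), and 38 of the 40 members, with all 5 that passed, lay in that range. The members' share was therefore near that of all genes in that range, which were not matched to the members' levels within it. The members' median difference was 0.01, beside -0.0013 over all genes, with 21 members above 0 and 19 below. In 18 members the 3 sh-PRLR values did not overlap the 3 sh-Ctrl values, in 8 of them higher and in 10 lower, and over all genes this held for 25.8% (11.7% higher and 14.1% lower). Among the 38 brighter members it held for 17, and among all genes of that range for 35.6%. Under limma's default prior variance, which is the same at every level, none of the 40 members passed. Their smallest adjusted p by limma was then 0.0728, for ELF3, and 4 genes of 19775 passed (0.0202%), although 3209 had an unadjusted p under 0.05. Some members passed only in an alternative: CLDN7, PARD3, PKP2 and ESRP1 with the dimmest 40% of genes left out, CLDN7 and TJP1 after quantile normalisation, and CLDN7 without the third sh-Ctrl array.

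**Figure D1:**
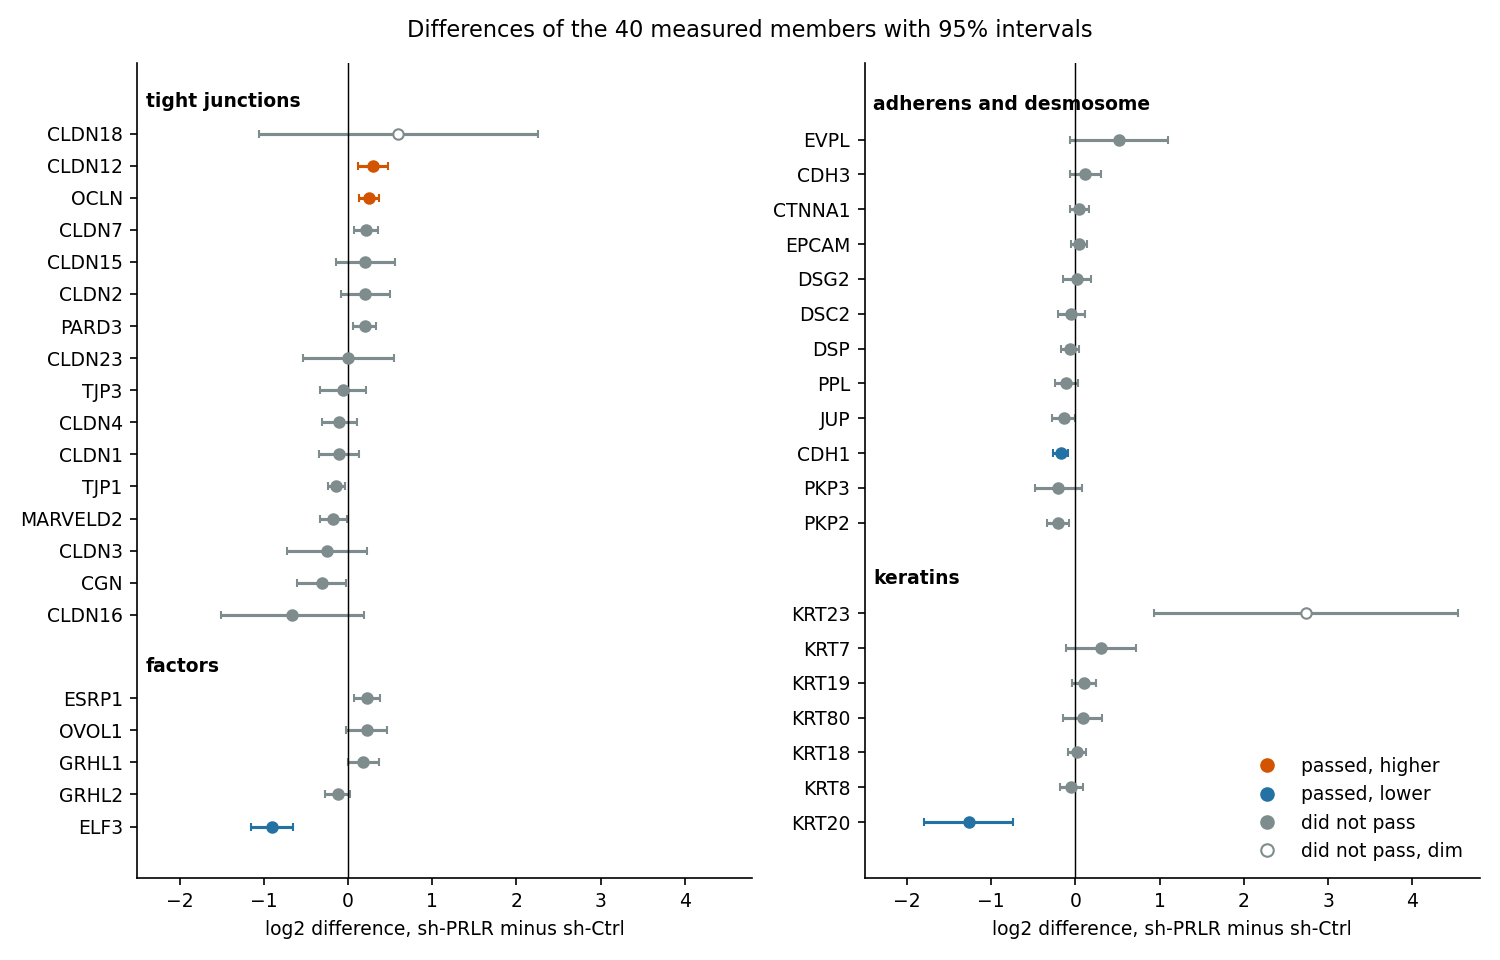
Difference of each measured member in log2 units, sh-PRLR minus sh-Ctrl, with its 95% interval, grouped by role (filled points are members at a mean of 5.93 or more, open points the dimmer ones). ELF3 and KRT20 lie farthest below 0 among the filled points, at -0.90 and -1.27, while 26 of the 35 members that did not pass have an interval within 0.5 of 0.

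The 2 members with the largest differences that passed, ELF3 and KRT20, are shown with the 250 bases before their RefSeq start (GRCh38.p14, written 5′ to 3′ along the gene), because both fell and no other member that passed differed as much. ELF3 lies on the plus strand at chr1:202010337-202010586 and KRT20 on the minus strand at chr17:40885243-40885492. Capitals mark TTTAT (the core of sites for CDX factors), GGAAG (a core of sites for ETS factors such as ELF3) or CACCTG (an E-box), each searched on both strands.
ELF3: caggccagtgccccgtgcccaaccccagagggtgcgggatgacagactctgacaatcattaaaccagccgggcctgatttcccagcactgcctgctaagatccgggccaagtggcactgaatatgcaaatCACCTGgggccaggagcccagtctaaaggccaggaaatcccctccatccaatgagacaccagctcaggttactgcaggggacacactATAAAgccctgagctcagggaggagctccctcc
KRT20: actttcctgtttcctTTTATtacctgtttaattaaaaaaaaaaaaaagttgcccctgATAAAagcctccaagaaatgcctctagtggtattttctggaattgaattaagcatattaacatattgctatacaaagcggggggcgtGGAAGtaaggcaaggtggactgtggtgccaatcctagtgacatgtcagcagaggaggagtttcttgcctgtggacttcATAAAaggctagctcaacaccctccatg

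The KRT20 window held TTTAT at 3 places, from -235 to -231 along the gene and from -193 to -189 and -28 to -24 on its opposite strand, and GGAAG from -106 to -102 (positions count back from the start). The ELF3 window held CACCTG from -120 to -115 and TTTAT on the opposite strand from -33 to -29, where it overlaps the TATA box letters TATAAA from -34 to -29. These letters are common: of 27305 promoters of the same length, 33.8% held TTTAT at least once, 65.0% GGAAG, 17.5% CACCTG and 11.2% TATAAA on either strand. How many held TTTAT at 3 places was not counted. A match describes the letters and does not show a site in use. Of the 5 members that passed, 4 had an entry among the RefSeq promoters, and CDH1 is named only. The windows of OCLN and CLDN12, which rose, are not printed. Both lacked TTTAT and held GGAAG, from -75 to -71 in OCLN and from -148 to -144 in CLDN12. OCLN also held CACCTG on its opposite strand, from -33 to -28. Whether these letters go with the direction of a gene's difference was not tested.

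Among the factors, ELF3, an ETS factor of epithelial cells, fell. Its brightest probe set read 8.57, 8.58 and 8.57 in sh-PRLR cells, against 9.27, 9.52 and 9.64 in sh-Ctrl cells. Every sh-PRLR array was lower than every sh-Ctrl array, and the sh-PRLR arrays differed from each other by about 0.01. The means were 8.57 ± 0.01 and 9.47 ± 0.19 (SD, n = 3 each), a difference of -0.90 (SE 0.11, 95% interval -1.15 to -0.66, limma adjusted p = 0.00114), which puts sh-PRLR cells at 53.5% of the sh-Ctrl level. Its other probe sets fell further. One read 6.56, 6.69 and 6.75 in sh-PRLR cells and 8.53, 9.14 and 8.60 in sh-Ctrl cells (difference -2.09, limma adjusted p = 0.000224 over 41091 probe sets). The remaining one read 7.08, 6.97 and 6.96 in sh-PRLR cells and 8.29, 8.41 and 8.14 in sh-Ctrl cells (difference -1.28, limma adjusted p = 0.00118). Thus all 3 ELF3 probe sets were without overlap, and they disagreed in size by more than 1 log2 unit. ELF3 passed in 13 of the 14 alternative settings, the exception being the default prior variance (limma adjusted p = 0.0728).

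The 4 other measured factors did not pass. ESRP1, which directs epithelial splicing, read 11.34, 11.25 and 11.17 in sh-PRLR cells and 11.02, 11.13 and 10.94 in sh-Ctrl cells (difference 0.22, 95% interval 0.07 to 0.38, limma adjusted p = 0.0876). Its groups did not overlap, and the same held for its second probe set, whose difference was 0.17. GRHL1, a grainyhead-like factor, read 10.30, 10.09 and 10.10 in sh-PRLR cells and 9.89, 9.9996 and 10.06 in sh-Ctrl cells (difference 0.18, limma adjusted p = 0.262). GRHL2, its relative that maintains junction genes, read 10.15, 10.17 and 10.17 in sh-PRLR cells and 10.31, 10.25 and 10.30 in sh-Ctrl cells (difference -0.12, limma adjusted p = 0.330). OVOL1, a zinc finger factor that represses mesenchymal genes, differed by 0.22 (limma adjusted p = 0.297). In all 5 measured factors the groups did not overlap, with ESRP1, GRHL1 and OVOL1 on the higher side in sh-PRLR cells and ELF3 and GRHL2 on the lower side; over all genes 25.8%, and among those at a mean of 5.93 or more 35.6%, were without overlap. The largest difference of the 4 that did not pass, 0.22, was far smaller in size than that of ELF3.

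Of the 7 measured keratins, KRT20 passed. It read 7.09, 8.23 and 7.43 in sh-PRLR cells, against 8.92, 8.83 and 8.80 in sh-Ctrl cells. All sh-PRLR arrays were lower than all sh-Ctrl arrays, but the second sh-PRLR array lay 0.57 below the lowest sh-Ctrl array and the first 1.71 below it. The means were 7.58 ± 0.59 and 8.85 ± 0.06 (SD, n = 3 each), a difference of -1.27 (SE 0.24, 95% interval -1.80 to -0.74, limma adjusted p = 0.0104), or 41.6% of the sh-Ctrl level. A single probe set measured this gene. Without the first sh-Ctrl array the difference was -1.23 and the limma adjusted p 0.05001, just past the threshold, and with the default prior variance it was 0.161.

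The keratins that make the filaments of simple epithelia stood at high levels in both groups and did not pass. KRT18 read 15.33, 15.35 and 15.22 in sh-PRLR cells and 15.22, 15.28 and 15.36 in sh-Ctrl cells (difference 0.01, 95% interval -0.09 to 0.12). The highest value on any array was 15.53, so KRT18 lay near the top of the range, and whether its signal was compressed there was not tested. KRT8, its partner, read 13.56, 13.42 and 13.47 in sh-PRLR cells and 13.48, 13.45 and 13.67 in sh-Ctrl cells (difference -0.05, 95% interval -0.19 to 0.09). The groups overlapped in both, and since both genes have processed pseudogene copies and their probe sets may bind related transcripts, these levels are uncertain. KRT19 read 12.58, 12.72 and 12.79 in sh-PRLR cells and 12.55, 12.56 and 12.68 in sh-Ctrl cells (difference 0.10, 95% interval -0.04 to 0.24), again with overlap. Averaged with its second, dim probe set the KRT19 difference was 0.48 and did not pass (limma adjusted p = 0.451). KRT7, a keratin of ductal epithelium, and KRT80 differed by 0.31 (95% interval -0.11 to 0.72) and 0.08 (95% interval -0.14 to 0.31).

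KRT23, which RefSeq places next to KRT20 on chromosome 17 with no protein-coding gene between them, had the largest difference of all members, in the opposite direction, and did not pass. It read 4.36, 4.04 and 5.04 in sh-PRLR cells and 2.38, 0.77 and 2.08 in sh-Ctrl cells (difference 2.74, 95% interval 0.93 to 4.55, limma adjusted p = 0.0725). The groups did not overlap, yet every value lay under 5.93, the level below which 40% of all genes fall, and whether either group was above background is not known because the deposited table has no detection calls.

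**Figure D2:**
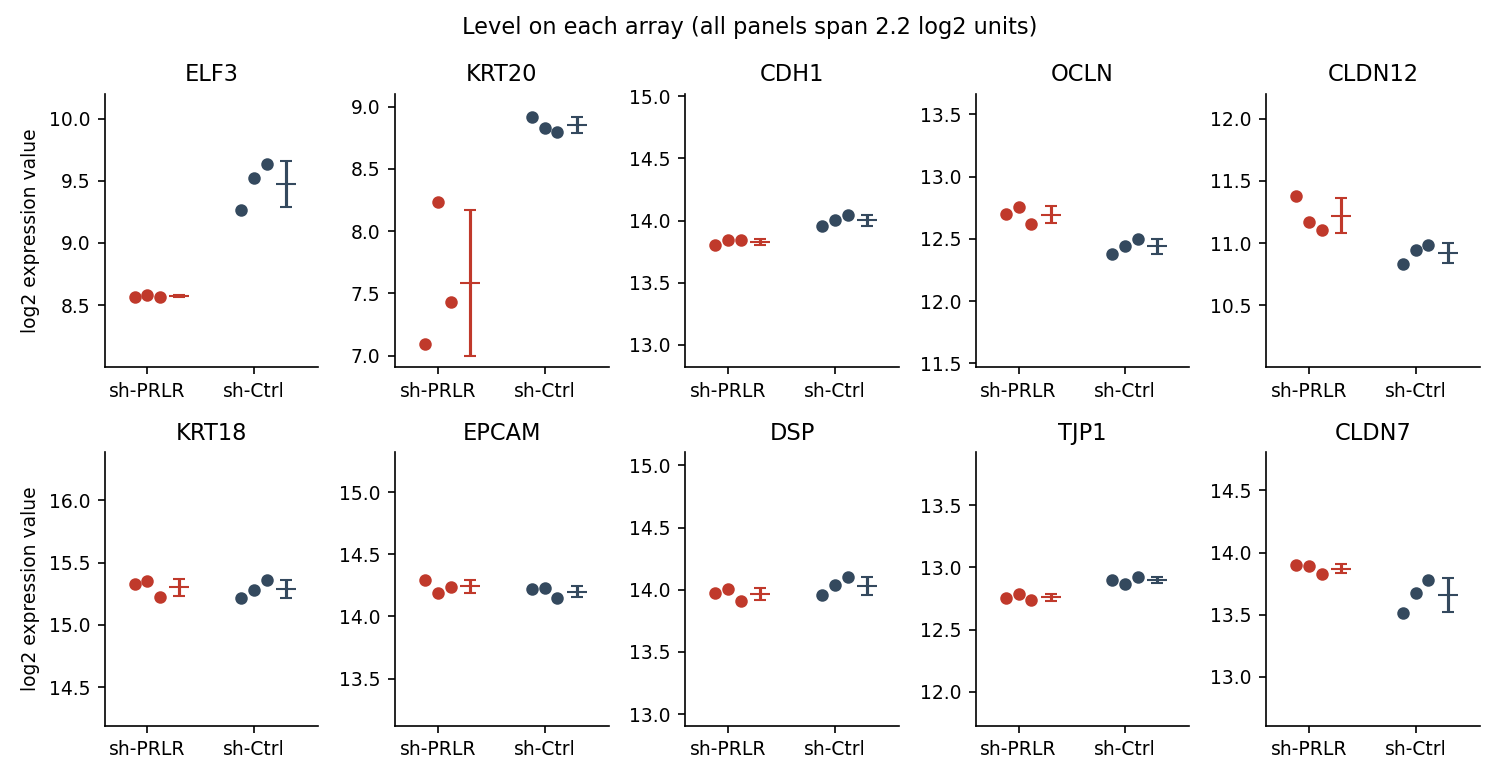
Log2 expression value on each array for 10 members, with the mean and SD of the 3 arrays beside the points, sh-PRLR on the left and sh-Ctrl on the right of each panel; every panel spans the same range of log2 units. ELF3 and KRT20 separate widely, CDH1, OCLN and CLDN12 separate by 0.30 or less, and KRT18, EPCAM and DSP overlap.

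Among the 12 measured adherens junction and desmosome genes, CDH1 passed. CDH1 encodes E-cadherin, the adhesion receptor of the adherens junction, and read 13.80, 13.84 and 13.84 in sh-PRLR cells, against 13.96, 14.005 and 14.04 in sh-Ctrl cells. The groups did not overlap, with 0.11 between the highest sh-PRLR and the lowest sh-Ctrl array. The means were 13.83 ± 0.02 and 14.001 ± 0.04 (SD, n = 3 each), a difference of -0.17 (SE 0.04, 95% interval -0.26 to -0.08, limma adjusted p = 0.0284), so that sh-PRLR cells held 88.7% of the sh-Ctrl level. Its dimmer probe set read 8.24, 8.0016 and 8.14 in sh-PRLR cells and 8.41, 8.39 and 8.09 in sh-Ctrl cells, also a difference of -0.17, with overlap and without passing (limma adjusted p = 0.606 over probe sets). The call rested on the chosen setting: without any 1 of the 3 sh-PRLR arrays, or without the second or the third sh-Ctrl array, the limma adjusted p of CDH1 was 0.0648 to 0.118, and CDH1 passed in 3 of 13 alternatives.

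The neighbour of CDH1 on chromosome 16, CDH3 (P-cadherin), differed by 0.12 (95% interval -0.06 to 0.30) and did not pass. CTNNA1, alpha-catenin, differed by 0.05 (95% interval -0.06 to 0.16). EPCAM, an epithelial adhesion molecule, read 14.30, 14.19 and 14.24 in sh-PRLR cells and 14.22, 14.23 and 14.15 in sh-Ctrl cells (difference 0.04, 95% interval -0.05 to 0.14), and its groups overlapped.

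None of the 8 desmosome and plakin genes passed with limma when all 19775 genes were tested, under either prior variance. PKP2 and JUP had an unadjusted p under 0.05 with the mean-dependent prior variance, as had 4010 of all genes. With the dimmest 40% of genes left out, which leaves 11865 to test, PKP2 passed with that prior variance. DSP (desmoplakin, the link to keratin filaments) read 13.98, 14.01 and 13.91 in sh-PRLR cells and 13.95, 14.04 and 14.10 in sh-Ctrl cells (difference -0.06, 95% interval -0.17 to 0.04). PKP2, a plaque protein, read 11.47, 11.48 and 11.58 in sh-PRLR cells and 11.81, 11.69 and 11.66 in sh-Ctrl cells (difference -0.20, 95% interval -0.34 to -0.07, limma adjusted p = 0.0698). The values of DSP overlapped and those of PKP2 did not. JUP (plakoglobin) and PPL (periplakin) were without overlap as well, with differences of -0.14 and -0.11, and the desmosomal cadherins DSG2 and DSC2 overlapped at 0.02 and -0.05, as did PKP3, another plaque protein, at -0.20. In all, 6 of the 8 differences were below 0 with a median of -0.09. EVPL, envoplakin, was the widest at 0.52 (95% interval -0.07 to 1.10), and its 3 sh-Ctrl values spread over 6.58 to 7.48.

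Of the 16 measured tight junction genes, 2 passed, both higher in sh-PRLR cells, and the median difference was -0.03. OCLN, occludin, a transmembrane protein of the tight junction strand, read 12.70, 12.76 and 12.62 in sh-PRLR cells, against 12.38, 12.45 and 12.50 in sh-Ctrl cells. Every sh-PRLR array was above every sh-Ctrl array. The means were 12.69 ± 0.07 and 12.44 ± 0.06 (SD, n = 3 each), a difference of 0.25 (SE 0.05, 95% interval 0.13 to 0.37, limma adjusted p = 0.0182), or 119% of the sh-Ctrl level. None of its 3 dimmer probe sets passed, with differences of 0.01, 0.25 and 0.12, and the mean of the 4 gave 0.16 (limma adjusted p = 0.234). Leaving out the second sh-PRLR array, the first sh-Ctrl array or the second sh-Ctrl array gave OCLN a limma adjusted p of 0.0812, 0.0771 and 0.0756, and OCLN passed in 7 of 14 alternatives.

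CLDN12, a claudin of the tight junction strand, read 11.38, 11.17 and 11.11 in sh-PRLR cells, against 10.83, 10.95 and 10.98 in sh-Ctrl cells. The groups did not overlap, with 0.13 between the lowest sh-PRLR and the highest sh-Ctrl array. The means were 11.22 ± 0.14 and 10.92 ± 0.08 (SD, n = 3 each), a difference of 0.30 (SE 0.08, 95% interval 0.12 to 0.47, limma adjusted p = 0.0450), or 123% of the sh-Ctrl level. It passed in 3 of 14 alternatives: leaving out the first or second sh-PRLR array or any 1 sh-Ctrl array gave a limma adjusted p of 0.0808 to 0.159, and the same values tested over all probe sets gave 0.0634.

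The other 14 measured tight junction genes did not pass, and 5 of them had an unadjusted p under 0.05. Over all genes 4010 of 19775 had such a p by the same limma test, and the share among the brighter genes alone was not counted. CLDN7 read 13.90, 13.89 and 13.83 in sh-PRLR cells and 13.52, 13.68 and 13.78 in sh-Ctrl cells (difference 0.21, 95% interval 0.07 to 0.35, limma adjusted p = 0.0702). TJP1, the scaffold ZO-1, read 12.75, 12.79 and 12.74 in sh-PRLR cells and 12.90, 12.87 and 12.92 in sh-Ctrl cells (difference -0.14, 95% interval -0.24 to -0.04, limma adjusted p = 0.0905). Both were without overlap, in opposite directions. CGN, cingulin of the cytoplasmic plaque, read 7.97, 8.16 and 8.21 in sh-PRLR cells and 8.30, 8.58 and 8.41 in sh-Ctrl cells (difference -0.31, 95% interval -0.61 to -0.02, limma adjusted p = 0.209), and averaged over its probe sets the CGN difference was -0.53 (limma adjusted p = 0.361). PARD3, a polarity protein, and MARVELD2, the tricellulin of the corners where cells meet that lies next to OCLN on chromosome 5, differed by 0.20 and -0.17 (limma adjusted p = 0.0784 and 0.208), also without overlap. Of the 10 claudins, CLDN12 alone passed and 6 of the differences were above 0.

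The remaining 8 claudins, CLDN1, CLDN2, CLDN3, CLDN4, CLDN15, CLDN16, CLDN18 and CLDN23, overlapped between the groups. Their differences ran from -0.66 for CLDN16 to 0.59 for CLDN18, the one dim claudin, and intervals were wide where levels were low: -1.51 to 0.19 for CLDN16 and -1.06 to 2.25 for CLDN18, against -0.31 to 0.11 for CLDN4. Such intervals do not show that these claudins were alike in sh-PRLR and sh-Ctrl cells. TJP3, a ZO family scaffold, differed by -0.06 (95% interval -0.34 to 0.21).

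**Figure D3:**
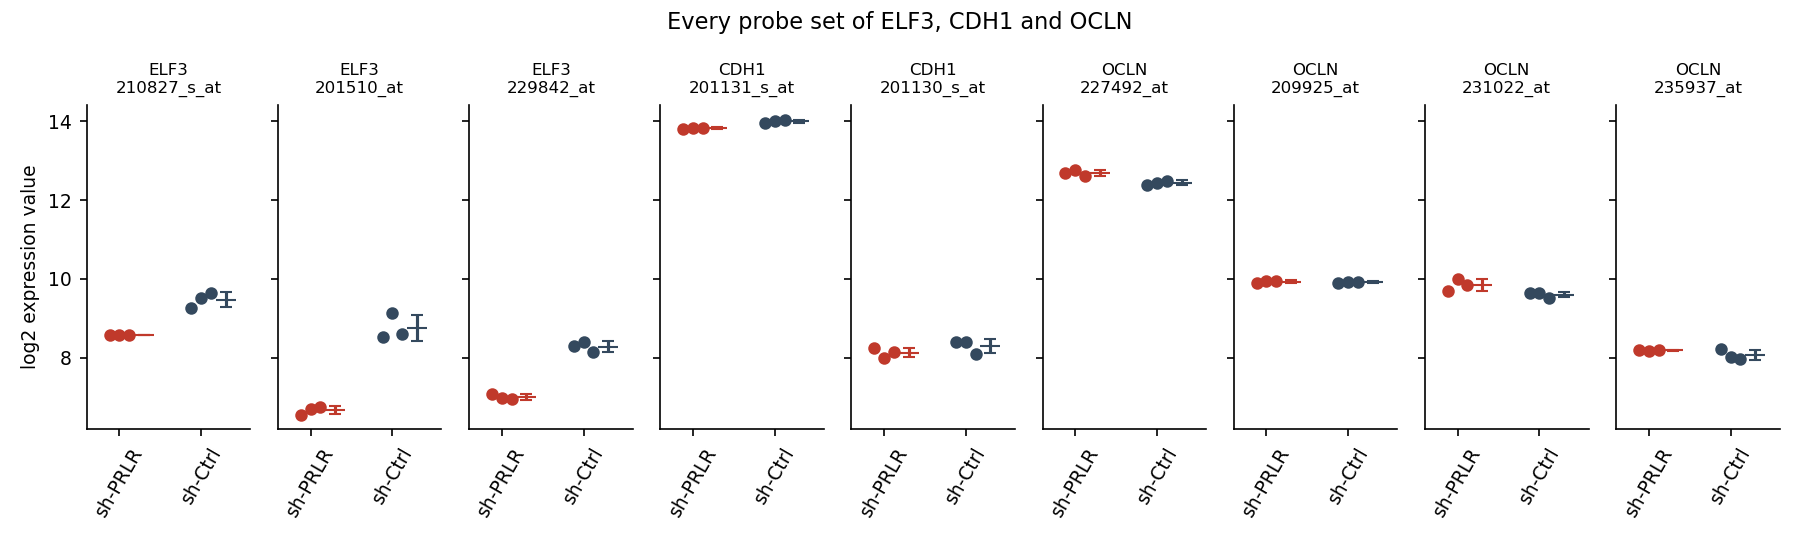
Log2 expression value on each array for every probe set of ELF3, CDH1 and OCLN, with mean and SD of 3 arrays, sh-PRLR left and sh-Ctrl right. All 3 ELF3 probe sets are lower in sh-PRLR cells without overlap, while in CDH1 and in OCLN only the brightest probe set passed.

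Members measured by several probe sets were not always read alike. Of 79 member probe sets, 6 passed when all 41091 probe sets were tested, 3 of them for ELF3 and 1 each for CDH1, OCLN and KRT20. Over all probe sets 4.67% passed, a share that was not matched to the levels of the members' probe sets. In 17 of the 24 members with several probe sets all had the same sign of difference, and in CLDN15, CLDN23, CLDN3, DSC2, OVOL1, PKP2 and TJP3 they did not. For PKP2 the brighter probe set gave -0.20 and the dimmer one 0.36.

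**Figure D4:**
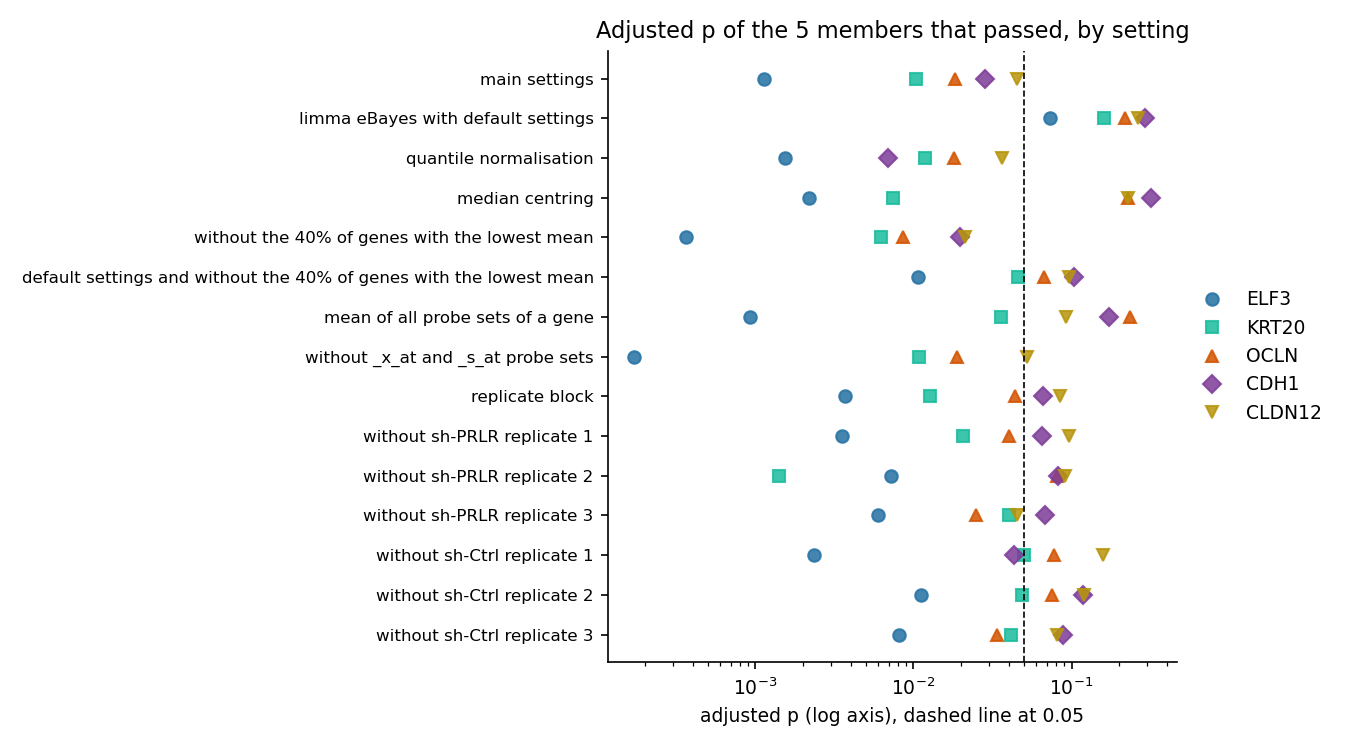
Adjusted p from limma (log axis) of the 5 members that passed, under the settings of the values reported here and each alternative, with a dashed line at 0.05. ELF3 lies left of the line in all rows but the default prior variance, where it is 0.0728, and KRT20 in all but that row and the one without the first sh-Ctrl array, while OCLN, CDH1 and CLDN12 cross the line in many.

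Other genes of these structures, from lists that exclude the members, were set beside them in 5 lists: 112 of 123 were measured, 3 rose and 10 fell (11.6%, against 7.66% of all genes), and none passed under the default prior variance. In the tight junction and polarity list 1 of 29 measured genes passed, MAGI3, a junction scaffold at 8.61 ± 0.04 in sh-PRLR cells and 9.03 ± 0.04 in sh-Ctrl cells (SD, n = 3 each; difference -0.42, limma adjusted p = 0.0255). MAGI3 lost its call when any array but the first sh-PRLR array was left out (limma adjusted p 0.0680 to 0.0924), and its mean over all probe sets differed by -0.06. Of 24 other junction genes 3 fell. CDH17, the liver-intestine cadherin, read 11.43, 11.70 and 11.75 in sh-PRLR cells and 12.14, 12.11 and 11.96 in sh-Ctrl cells (difference -0.44, limma adjusted p = 0.0112), without overlap, but without the first or the second sh-Ctrl array its limma adjusted p was 0.0568 or 0.0594. PERP, a desmosome protein, averaged 13.94 ± 0.11 in sh-PRLR cells and 14.41 ± 0.06 in sh-Ctrl cells (SD, n = 3 each; difference -0.46, limma adjusted p = 0.00125). Its 3 brighter probe sets were lower and its 2 dim ones higher, so that the mean over probe sets was 0.21 and did not pass, and its brightest probe set not named _x_at or _s_at gave -0.39 (limma adjusted p = 0.280). DST, dystonin of hemidesmosomes, differed by -0.24 (limma adjusted p = 0.0447) and passed in 1 of 14 alternatives, in none of those that leave out an array (limma adjusted p 0.0651 to 0.160). Its difference was -0.50 averaged over its probe sets (limma adjusted p = 0.341) and -0.08 without those named _x_at or _s_at (limma adjusted p = 0.847).

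Of these 5 lists, that of other epithelial factors and membrane proteases had 7 of 20 measured genes pass, 4 lower and 3 higher, with a median difference of 0.04. The 7 were among its 18 genes at a mean of 5.93 or more, a range in which 12.5% of all genes passed, and the 5 lists held unequal numbers of dim genes, from 2 of 20 here to 18 of 21 among other keratins and envelope genes. All 5 lists were chosen with earlier results of these data known, so their shares beside those of all genes are no test of the lists. CDX2, the intestinal homeobox factor, read 8.48, 8.35 and 8.28 in sh-PRLR cells, against 9.24, 9.32 and 9.45 in sh-Ctrl cells (difference -0.96, SE 0.11, limma adjusted p = 0.000656). ST14, the membrane protease matriptase, read 9.72, 9.57 and 9.40 in sh-PRLR cells, against 10.38, 10.39 and 10.44 in sh-Ctrl cells (difference -0.84, SE 0.09, limma adjusted p = 0.000511). Neither gene's groups overlapped, and both passed whichever array was left out, although the mean over the 3 probe sets of ST14, 1 of them dim, was -0.25 (limma adjusted p = 0.712). EHF, an ETS factor related to ELF3, read 12.46, 12.70 and 12.59 in sh-PRLR cells, against 12.95, 12.89 and 12.91 in sh-Ctrl cells (difference -0.33, SE 0.06, limma adjusted p = 0.00895). It too was without overlap, and all 6 of its probe sets were lower in sh-PRLR cells.

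RAB25, a small GTPase of apical recycling, rose to 11.70 ± 0.05 in sh-PRLR cells, against 11.42 ± 0.04 in sh-Ctrl cells (SD, n = 3 each; difference 0.28, limma adjusted p = 0.0111, and 0.0581 without the second sh-Ctrl array). The other 3 genes of this list that passed were chosen for naming after their values were seen. GRHL3, another grainyhead-like factor, differed by -0.78 (limma adjusted p = 0.0156), and leaving out any 1 sh-Ctrl array gave 0.0592 to 0.0666. FOXA2, an endoderm factor, differed by 0.54 (limma adjusted p = 0.0479) and CDS1, an enzyme of phosphoinositide synthesis, by 0.25 (limma adjusted p = 0.0331). Leaving out an array ended the FOXA2 call in all cases but the third sh-Ctrl array (limma adjusted p 0.0625 to 0.141) and the CDS1 call in every case (limma adjusted p 0.0558 to 0.143). Averaged over their probe sets the 2 genes differed by 0.18 (FOXA2, limma adjusted p = 0.717) and 0.03 (CDS1, limma adjusted p = 0.925).

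**Figure D5:**
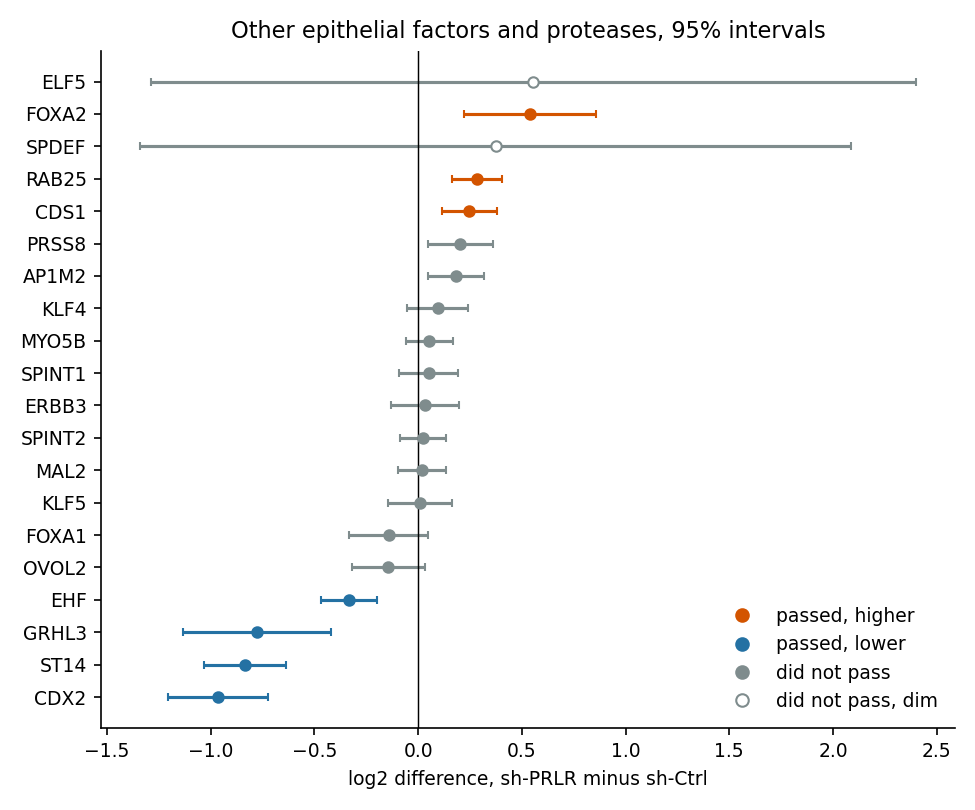
Difference of the 20 measured genes of the list of other epithelial factors and proteases in log2 units, sh-PRLR minus sh-Ctrl, with 95% intervals (open points are dim genes). CDX2, ST14, GRHL3 and EHF lie below 0 and FOXA2, RAB25 and CDS1 above it among those that passed.

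Among other keratins and cornified envelope genes, 18 of the 21 measured were dim and 1 passed. KRT12, known as a keratin of the cornea, read 0.01, 0.74 and 1.45 in sh-PRLR cells and 4.57, 4.82 and 4.65 in sh-Ctrl cells (difference -3.95, limma adjusted p = 0.0141), without overlap and all below 5.93, and without any 1 sh-Ctrl array its limma adjusted p was 0.0501 to 0.0621. Of the 18 mesenchymal genes and repressors of epithelial genes, 13 were dim and 1 passed. ACTA2, smooth muscle actin, averaged 8.83 ± 0.25 in sh-PRLR cells and 9.45 ± 0.07 in sh-Ctrl cells (SD, n = 3 each; difference -0.62, limma adjusted p = 0.0134), and without the first or the second sh-Ctrl array the limma adjusted p was 0.0642 or 0.0570. Averaged over its 3 probe sets it differed by -0.57 and did not pass (limma adjusted p = 0.776). The list's median difference was -0.01.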

How the data were processed

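RNA of 3 sh-PRLR and 3 sh-Ctrl cultures was measured on 6 Affymetrix arrays. The deposited table holds log2 values for 54675 probe sets. The submitters' processing notes name MAS5, RMA and affy without role or version, with the genome build not given in the sources used here. On the linear scale the mean after 2% trimming was 500 on every array, and the values were not normalised again. The platform annotation gave 41091 probe sets 1 gene symbol, 1801 several and 11777 none, and 62 control probe sets were left out.

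The brightest probe set stood for each of 19775 genes. Differences were tested with limma 3.58.1 in R 4.3.3 (lmFit, then eBayes with trend and robust), two-sided, adjusted by Benjamini-Hochberg over all genes, threshold 0.05. The same test ran over all single-symbol probe sets. The test was also run on 5 simulated sets, each with 200 of 19775 genes changed. All changed genes lay above the median gene level, and the noise was normal and independent between arrays. The test recovered 6.4% of changes of 0.25 log2 units, 41.3% of those of 0.5 and 84.2% of those of 1. Of its calls there, 2.0% were false. These shares do not cover changes in genes below the median level. They do not measure how many calls in the data are false. The 40% of genes with the lowest mean are called dim. The number of arrays, 3 per group, limits the precision, and no depth applies.

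Named were members that passed, the 3 brightest of each role class, members without overlap whose difference was 0.25 or more, and up to 4 genes per other list. Other members are given for completeness. The members, lists and test were chosen with earlier results of these data known. Alternatives were the default prior variance, quantile normalisation, median centring, leaving out dim genes, other probe set rules, a replicate block and leaving out each array.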

Additional observations from a re-analysis of the deposited data

How the results depend on the processing

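Of the 40 measured members 5 passed limma's test, with 1514 of 19775 genes and 13 of 112 other listed genes. With the default prior variance these counts were 0, 4 and 0, with median centring 2, 589 and 7, averaging a gene's probe sets 2, 609 and 7, without the 40% dimmest genes 9, 2026 and 12, and with both that filter and the default prior variance, a pairing chosen after seeing the data, 2, 1144 and 7. Quantile normalisation gave 7, 1548 and 12, and dropping probe sets named _x_at or _s_at 3, 1011 and 10. Leaving out 1 array gave 2 to 4 members, 665 to 1322 genes and 4 to 11 other listed genes, and a PRLR difference of -0.96 to -0.73. ELF3 and KRT20 were the 2 members that passed with median centring, with the mean of probe sets and with the default prior variance plus filter. With the replicate number as a block the counts were 3, 1090 and 10. Same-numbered arrays had correlations of deviations from their group means of -0.07, 0.04 and -0.10, and differently numbered arrays of -0.04 to 0.10. With 3 arrays per group these values cannot show whether cultures were prepared in pairs, and the labels do not say. Signs turned for PERP (0.21 when its probe sets were averaged), KRT18 (-0.011 without sh-PRLR replicate 2 and -0.020 without sh-Ctrl replicate 1, in a range of -0.020 to 0.053 over arrays left out) and KRT8 (0.019 without sh-Ctrl replicate 3, in a range of -0.091 to 0.019). The causes were not tested. No detection calls were used, so dim values cannot be told from background.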
